A study of Mus musculus with 12 samples.

Results

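Cohesin is the ring-shaped complex that holds sister chromatids together, and in oocytes it must hold them from before birth until the egg is fertilised. The ring is built from a pair of SMC proteins closed by a kleisin and carries a STAG subunit, and germ cells add meiosis-specific versions of these parts to the general ones. Separase opens the ring by cutting the kleisin, first along chromosome arms and later at centromeres, where shugoshin and the phosphatase PP2A shield it in the first division. Cohesin of the mouse oocyte is known to be loaded in the fetal ovary and to be renewed little afterwards, so the RNAs counted here do not measure the protein already on the chromosomes.

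The 9 genes described are *Rec8*, *Smc1a*, *Smc1b*, *Smc3*, *Stag3*, *Rad21l*, *Sgo2a*, *Espl1* and *Wapl*, chosen by name and not by any measured value, out of 56691 genes in the count table. All 9 gene identifiers were found in the table. Counts were read in 12 libraries of mouse oocytes, 2 for each combination of WT or *Alkbh5*-/- (KO) with the germinal vesicle (GV), germinal vesicle breakdown (GVBD) or metaphase II (MII) stage. The KO mice, of C57BL/6 background as the WT, lacked exon 1 of *Alkbh5* in every tissue. The gene encodes an eraser of the RNA mark m6A. GV oocytes of hormone-primed females aged 3 weeks were cultured in M16 medium, taken after 0, 4 and 16 hours, freed of their zona and pooled. Most KO oocytes are reported not to have reached the later stages, and whether KO oocytes were selected by stage was not found in the text, so genotype and stage cannot be told apart in the KO GVBD and KO MII libraries. The labels do not say whether the 2 libraries of a group came from different animals, so p-values measure the spread between these libraries only.

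Total counts per library, in units of 1e6, ranged from 28.6 to 40.2, and 221927 to 838409 of them fell on the ERCC spike-in RNAs added in equal amount to each pool. Unless stated otherwise, a level is a count scaled so that every library has the same ERCC sum, and levels of different genes are compared only after division by exon length in kb. *Alkbh5*, the deleted gene, had 5355 to 10181 counts in WT libraries and 54 to 143 in KO libraries, and its log2 fold change in KO over all stages was -5.90 (SE 0.42, adjusted p = 1.61e-05 by edgeR's quasi-likelihood test with Benjamini-Hochberg adjustment). All 10 oocyte markers, such as *Zp3* and *Gdf9*, were read in every library. Of 10 granulosa and cumulus markers, *Amh* and *Foxl2* had at most 5 counts in any library, and the 10 summed to a scaled 1601 and 1652 in WT GV against 2314 and 2412 in KO GV. At GVBD the sums were 1475 and 1753 in WT against 1910 and 3460 in KO, and at MII they ran from 813 to 1435 in WT and from 1895 to 1969 in KO, so the KO sums were the higher at each stage. *Fshr*, the receptor for follicle-stimulating hormone, was called higher in KO at GVBD (log2 fold change 3.38, SE 0.69, adjusted p = 0.00897, edgeR). The largest term of the sums was *Cyp19a1*, with 577 to 2225 counts per library. The markers did not move as one: at GV 4 of 6 tested had estimates above 0, with a median of 0.19 beside 0.36 for all genes. *Inhba*, *Has2* and *Ptx3* had means of 101, 19.0 and 21.3 in WT GV and 28.4, 9.65 and 9.38 in KO GV. At GVBD 5 of 6 were above 0 (median 0.43 beside 0.23) and at MII 5 of 7 (0.75 beside 0.30). The part of these markers in the results was not tested. The KO MII libraries differed most within a group: the median gene of 13273 was 1.15 lower on the log2 scale in replicate 2 than in replicate 1.

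Short promoter sequences are shown first, as a description. The letters TCCCGC are the core of the E2F-type element, and E2F6 is known to keep *Smc1b* and *Stag3* silent in somatic cells. In RefSeq windows of 300 bases on GRCm38.p6 (250 before and 50 from the start site on), the core was found on either strand in 6 of the 9 genes, against 20% of 32851 windows. *Sgo2a* has 2 windows, both with the core, of which the one at its annotated start is shown. The stretches below are 30 bases each, read on the gene's own strand, with the core or its reverse complement GCGGGA in capitals.

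Rec8: gtgtgcacctgaTCCCGCtggagggcgaca

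Smc1b: aaaagaatttctTCCCGCgctttttttttt

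Stag3: tatcccgtgcctTCCCGCgtttttttctaa

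Sgo2a: ctctccagtacgTCCCGCcccttccgtctt

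Smc3: tctaagagggccGCGGGAgaggggcctttc

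They lie at chr14:55618116-55618145 on the plus strand for *Rec8*, chr15:85131987-85132016 on the minus strand for *Smc1b* and chr5:138280495-138280524 on the plus strand for *Stag3*. That of *Sgo2a* is at chr1:57995910-57995939 and that of *Smc3* at chr19:53600268-53600297, both on the plus strand. Positions are counted with 1 at the RefSeq start site and -1 just before it. The core began at -38 in *Rec8*, -47 in *Smc1b*, -52 in *Sgo2a* and -116 in *Smc3*. In *Stag3* it began at -2 and so spanned the RefSeq start site. In the GENCODE M21 models used for positions elsewhere here, *Rec8* starts at 55618037 and *Stag3* at 138280240. The printed stretches of these genes thus lie inside those models and not before their start. *Smc3* held the core a second time, beginning at 30 within the transcribed bases. *Smc1a* held it within the transcribed 50 bases. *Rad21l*, *Wapl* and *Espl1* did not hold these letters in their windows. The *Rad21l* window also stood apart in base composition, with 2 CpG and 29% GC, where the other genes had 11 to 35 CpG and the median window had 7. The core itself holds a CpG, and the share over all windows counts windows rather than genes and was not matched for CpG content. A match is a description of letters and not of binding, and its relation to RNA level was not tested.

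*Rec8* RNA, which encodes the kleisin of meiotic cohesin, was hardly read at all. It had 3 counts in WT GVBD replicate 1, 2 counts in KO GVBD replicate 1 and 0 in the other 10 libraries. A count of 0 allows up to 3 counts in a library. *Rec8* (chr14:55618037-55625395, plus strand, 2935 exonic bases) shares no exonic base with another gene of the annotation used here. Whether the annotation or the counting behind the deposited table affected its counts was not tested. It did not pass the filter on low counts in any comparison and was not tested, and the other 8 genes were tested in all 9 comparisons.

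Per kb of exon, the general subunits lay above their germline versions in every library. *Wapl*, which releases cohesin from chromosomes by opening the ring, had the highest level of the 9 genes, with a mean of 1210 over all libraries, followed by *Smc3* (793) and *Smc1a* (735), which together form the SMC pair of the general ring. These 3 ranked above 92.1% or more of the detected genes. *Smc3* exceeded *Smc1a* in 7 of 12 libraries, so those neighbours did not differ beyond their spread, and *Wapl* exceeded *Smc3* in 11 of 12.

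A middle tier followed. *Sgo2a*, the shugoshin of the oocyte, had a mean of 99.6 per kb and *Smc1b*, the germline partner of *Smc3*, 96.4. *Sgo2a* was the higher of these in only 4 of 12 libraries. *Espl1*, which encodes separase, had 60.9 and *Rad21l*, a germline kleisin of early prophase, 53.7, and *Espl1* was the higher in 6 of 12 libraries. The exon model of *Rad21l*, at 1659 bases, spans coding length only, which limits comparison of its level per kb with other genes. *Stag3*, the germline STAG subunit, had 19.7, and *Rec8* 0.208.

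**Figure D1:**
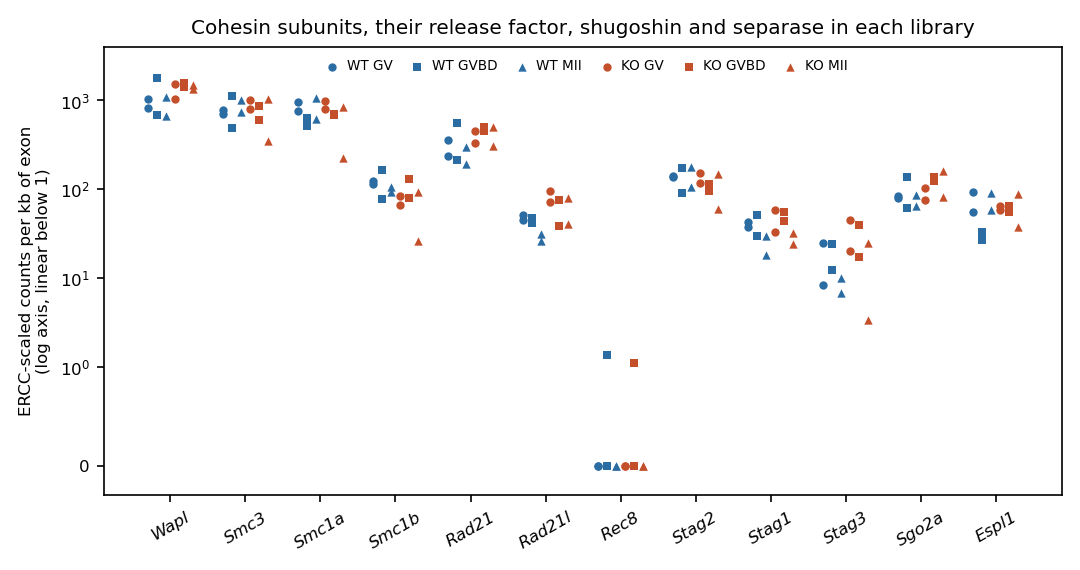
ERCC-scaled counts per kb of exon (y axis, logarithmic above 1 and linear below) for the 9 genes and the general subunits Rad21, Stag1 and Stag2 (x axis), with 1 point per library, WT in blue, KO in red, and circles, squares and triangles for GV, GVBD and MII. Rec8 sits at 0 in 10 of 12 libraries, while Wapl, Smc3 and Smc1a lie highest.

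Ratios between paired subunits do not depend on how libraries are scaled to each other. Per kb, *Smc1a* exceeded *Smc1b* by 3.85 to 12.1 times (median 8.21), and *Rad21*, the general kleisin, exceeded *Rad21l* by 4.54 to 13.3 times (median 6.26). The coding-only model of *Rad21l* limits the latter ratio. *Stag2* exceeded *Stag3* by 2.37 to 17.8 times (median 6.93), and even the lower *Stag1* exceeded it by 1.3 to 7.14 times. Each of these ratios was above 1 in 12 of 12 libraries. *Pttg1*, which encodes securin, the inhibitor of separase, lay 1036 to 4976 times above *Espl1* per kb. *Sgo1*, the shugoshin of mitotic cells, lay 3.67 to 14.4 times above *Sgo2a*.

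Among the kleisins *Rec8* took 0.227% of the length-corrected counts in WT GVBD replicate 1 (95% exact interval 0.0468 to 0.661%) and 0.208% in KO GVBD replicate 1 (0.0252 to 0.749%). In the libraries without a *Rec8* count, between 908 and 2256 kleisin counts were read, which allows a share of counts of up to 0.133 to 0.330%. These intervals and limits cover counting error only, since PCR copies were not marked as such. The level of *Rec8* was therefore not detectable at this depth in any library without a count.

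The germline share was then compared between genotypes within libraries. *Smc1b* made up 11.3 and 13.1% of the SMC1 subunits in WT GV and 7.75 and 7.64% in KO GV. At GVBD the values were 20.6 and 13.1% in WT and 15.9 and 10.2% in KO. At MII they were 8.87 and 13.2% in WT and 9.87 and 10.5% in KO. The genotypes were apart at GV and overlapped at GVBD and MII. Over all stages the mean was 13.4% ± 3.93 in WT and 10.3% ± 3.02 in KO (SD, n = 6 each), lower in KO by its mean at 3 of 3 stages, and the difference of -3.05 points did not pass an exact two-sided permutation test of genotype within stage (p = 0.111, adjusted over 3 shares p = 0.236, smallest possible p = 0.00926).

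The *Stag3* share of the STAG subunits leaned the other way. It was 12.6 and 4.38% in WT GV against 17.5 and 11.8% in KO GV. At GVBD it was 9.72 and 9.17% in WT against 21.0 and 9.71% in KO, and at MII 4.65 and 5.30% in WT against 11.9 and 3.86% in KO. The genotypes overlapped at every stage, at GVBD only narrowly. The means over all stages were 7.64% ± 3.36 in WT and 12.6% ± 6.0 in KO (SD, n = 6 each), a difference of 4.99 points (exact permutation p = 0.157, adjusted p = 0.236). For *Rec8* the same exact permutation test gave p = 1.0. None of the 3 shares differed between genotypes beyond the spread of these libraries, and with 2 libraries against 2 no single stage can go below p = 0.333 in such an exact test.

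**Figure D2:**
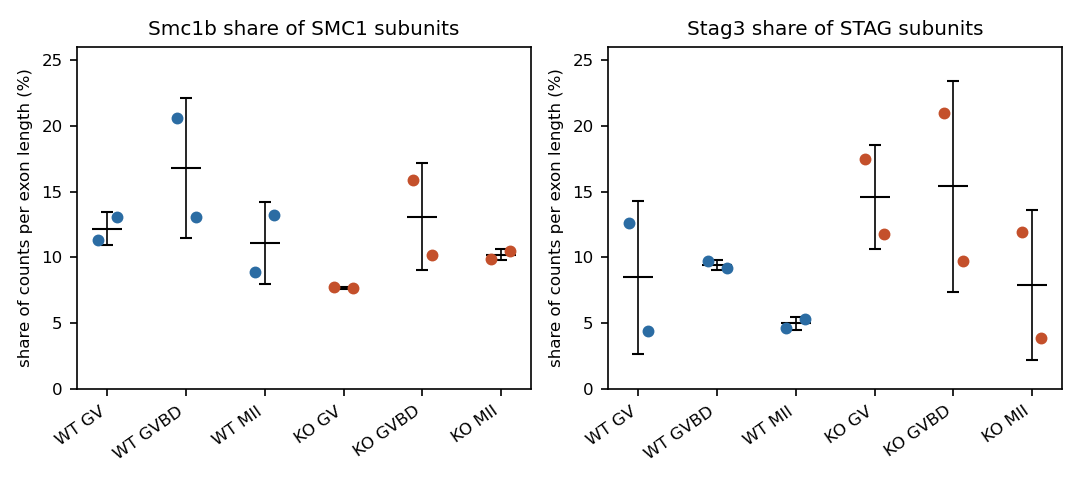
Share of the germline subunit within its family after division by exon length (y axis, %) in each of the 6 groups (x axis), for Smc1b among SMC1 subunits on the left and Stag3 among STAG subunits on the right. Points are libraries and bars are the mean and SD of 2, and the 2 KO GV points for Smc1b, at 7.64 and 7.75%, lie below all WT points.

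How did the loss of ALKBH5 change these RNAs at each stage? At GV, 0 of 8 tested genes passed edgeR's test (adjusted p under 0.05 and absolute log2 fold change of at least 1), where 0.0977% of all tested genes did. DESeq2 also called 0 of 8, against 5.59% of all genes, and neither tool gave any of the 8 an unadjusted p under 0.05. By edgeR 3475 of all 19452 tested genes had such a p. The 8 genes had a median log2 fold change of 0.21, beside 0.36 for all genes.

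*Smc1b* was the member lowest in KO at GV. Its scaled counts were 501 and 463 in WT GV and 339 and 267 in KO GV. Both KO libraries lay below both WT libraries, with a log2 fold change of -0.67 (SE 0.31, adjusted p = 0.320, edgeR). With TMM scaling, which sets libraries level on most genes instead of on the spike-ins, it was -1.01 (SE 0.23) and had an unadjusted p under 0.05, but was not called (adjusted p = 0.216, edgeR). *Rad21l* ran opposite, with 84.2 and 74.7 in WT GV and 158 and 120 in KO GV. The groups were again apart, with a log2 fold change of 0.80 (SE 0.47, adjusted p = 0.428, edgeR). *Smc3* was apart too, with 3862 and 4350 in WT GV and 5558 and 4395 in KO GV. Its log2 fold change was 0.28 by DESeq2 (SE 0.21), beside a median of 0.37 for all genes. With TMM scaling it was -0.06 (SE 0.13, edgeR). Separation of 2 libraries from 2 corresponds to no less than p = 0.333 in an exact permutation test. The share of all genes apart in this way was not counted at any stage. *Stag3* spread widely, at 144 and 47.9 in WT GV and 257 and 116 in KO GV, so the groups overlapped (log2 fold change 0.95, SE 0.68). That estimate was 1.95 without WT GV replicate 1, 0.37 without WT GV replicate 2 and 0.27 without KO GV replicate 1. *Wapl* reached 5409 and 6896 in WT GV and 10223 and 6855 in KO GV, also overlapping (0.47, SE 0.25), and the estimate was 0.16 without KO GV replicate 1, 0.31 without WT GV replicate 1 and 0.73 without KO GV replicate 2.

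At GVBD, 0 of 8 genes were called by edgeR, beside 2.54% of all genes, and 0 of 8 by DESeq2, beside 4.36%. The number with an unadjusted p under 0.05 was 0 by edgeR and 1, *Espl1*, by DESeq2. Over all tested genes it was 2901 of 19462 by edgeR and 3370 of 29300 by DESeq2. *Espl1* had 233 and 291 scaled counts in WT GVBD and 492 and 565 in KO GVBD. The groups did not overlap, and the log2 fold change of separase RNA was 1.01 (SE 0.56, adjusted p = 0.424, edgeR). *Smc1a* was apart as well, with 3653 and 2953 in WT GVBD and 3953 and 4062 in KO GVBD. Its log2 fold change was 0.28 by DESeq2 (SE 0.42), beside a median of 0.17 for all genes. With TMM scaling it was -0.0 (SE 0.26, edgeR). *Smc1b* gave -0.20 (SE 0.59) and *Stag3* 0.65 (SE 0.65) at this stage.

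At MII, edgeR called 0 of 8 genes beside 0.803% of all genes, and DESeq2 0 of 8 beside 2.04%, with no unadjusted p under 0.05 by either. By edgeR 1286 of all 17566 tested genes had such a p. *Rad21l* had 43.9 and 52.5 scaled counts in WT MII, below the 131 and 68.0 of KO MII (log2 fold change 1.04, SE 1.03, adjusted p = 1.0, edgeR). *Wapl* was likewise apart, with 7288 and 4394 in WT MII against 9917 and 8921 in KO MII (0.69, SE 0.73). Without KO MII replicate 1 the estimate of *Rad21l* was 0.50, and that of *Wapl* was 1.10 without WT MII replicate 1 and 0.37 without WT MII replicate 2. *Smc1b* was lower in both KO MII libraries (374 and 105) than in WT MII (424 and 381).

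The last value shows how far the KO MII libraries lay from each other. *Smc1a* had 4874 and 1285 in them, *Smc3* 5701 and 1929, and *Stag3* 141 and 19.3. *Wapl* differed least among the 8, by -0.15 on the log2 scale, and *Stag3* most, by -2.84, where the median of all genes was -1.15. The KO against WT estimate of *Stag3* at MII was -1.32 without replicate 1 and 1.54 without replicate 2, so its direction rests on which library is kept. With both libraries it was 0.72 (SE 1.04), and those of *Smc1a* and *Smc1b* were -0.67 (SE 0.77) and -0.75 (SE 0.91). Without replicate 1 the latter were both -1.93, and without replicate 2 that of *Smc1b* was -0.10 and that of *Smc1a* within 0.01 of 0. With TMM scaling and both libraries kept, *Smc1a* was at -1.10 (SE 0.35, adjusted p = 0.191, edgeR), *Smc1b* at -1.24 (SE 0.40, adjusted p = 0.196) and *Smc3* at -0.76 (SE 0.28, adjusted p = 0.234), each with an unadjusted p under 0.05 and none called.

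With the 3 stages fitted together and stage as a covariate, edgeR called 0 of 8 genes beside 1.26% of all genes. DESeq2 called 0 of 8 beside 7.13%, with 1 gene, *Rad21l*, at an unadjusted p under 0.05 and none by edgeR. Of all tested genes, 5308 of 33089 by DESeq2 and 4146 of 22004 by edgeR had such a p. *Rad21l* had a log2 fold change of 0.74 (SE 0.35, adjusted p = 0.276, edgeR), *Stag3* 0.78 (SE 0.49), *Wapl* 0.48 (SE 0.26), *Sgo2a* 0.40 (SE 0.28) and *Espl1* 0.16 (SE 0.32). *Smc1a* (-0.11, SE 0.31), *Smc3* (-0.07, SE 0.30) and *Smc1b* (-0.54, SE 0.34, adjusted p = 0.408, edgeR) had estimates below 0. None of the 8 differed beyond the spread between libraries, and the median of all genes was 0.29.

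These estimates moved with the scale. With TMM scaling the log2 fold change of *Smc1b* in KO over all stages was -0.86 (SE 0.22, adjusted p = 0.0445, edgeR), short of the absolute log2 fold change of 1 that the call requires. The other 7 tested genes had adjusted p from 0.244 up under that scaling. *Smc1a* was then at -0.43 (SE 0.20) and *Smc3* at -0.35 (SE 0.18), and the estimate of *Espl1* changed sign to -0.14 (SE 0.27).

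**Figure D3:**
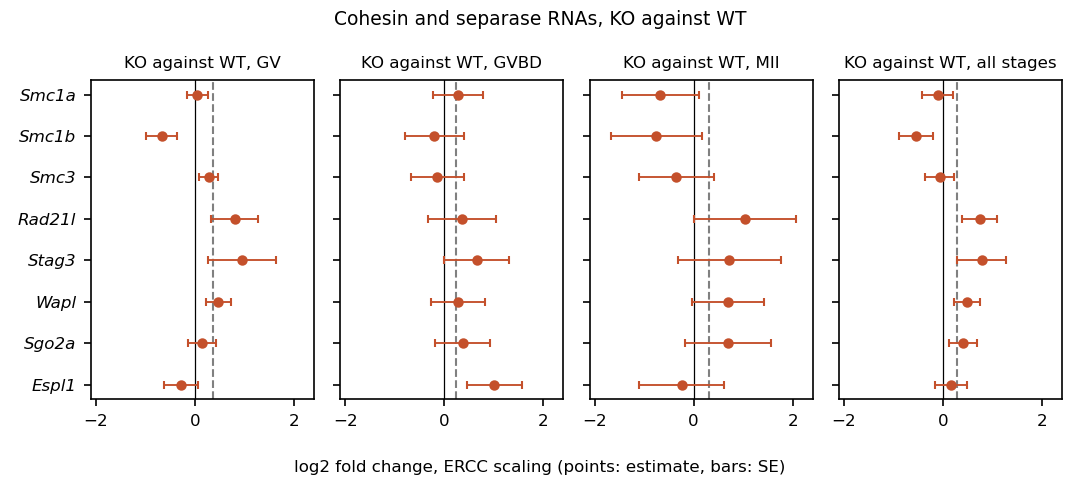
Log2 fold change of KO against WT with ERCC scaling (x axis) for the 8 tested genes (y axis) at GV, GVBD, MII and over all stages. Points are edgeR estimates, bars their standard errors and the dashed lines the median of all tested genes, and the bars are longest at MII.

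During maturation WT oocytes are reported to clear much of their stored RNA, and the question was how the cohesin set fared. By the study's methods the libraries were made from polyadenylated RNA. Its tail assay, done once, found that poly(A) tails of the assayed transcripts shortened as WT oocytes matured. The study reports that this shortening was impaired in KO oocytes. Tail length and RNA amount cannot be told apart in these counts, here, between genotypes or for the partner genes below. Between GV and MII in WT, 30.9% of all tested genes were called by edgeR, nearly all lower (30.5%), and the median gene had a log2 fold change of -1.06. Of the 8 cohesin and separase genes 0 were called, 0 had an unadjusted p under 0.05, and their median was -0.10. Of all 18816 tested genes, 7352 had an unadjusted p under 0.05 by edgeR. DESeq2 called 0 of 8 beside 26.6%, also with no unadjusted p under 0.05.

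*Smc3* had 3862 and 4350 scaled counts in WT GV and 5632 and 4077 in WT MII. It was the only one of the 8 with an estimate above 0 (0.24, SE 0.47), at the 89.3 percentile of all tested genes. *Smc1a* had 5612 and 4380 at GV and 6212 and 3555 at MII (-0.03, SE 0.47), and *Espl1* 826 and 485 at GV and 794 and 515 at MII (-0.00, SE 0.51). For these genes the stages overlapped.

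The stages overlapped for *Wapl* (-0.08, SE 0.47) and *Sgo2a* (-0.12, SE 0.52) too. *Smc1b* was lower in both WT MII libraries (424 and 381) than at GV (501 and 463), by less than its standard error (-0.26, SE 0.53). The lowest estimates were those of 2 germline genes with few counts. *Rad21l* had 84.2 and 74.7 at GV and 43.9 and 52.5 at MII, without overlap (-0.72, SE 0.81), and *Stag3* 144 and 47.9 at GV and 57.4 and 39.5 at MII, with overlap (-0.99, SE 0.79, adjusted p = 0.383, edgeR).

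Relative to other RNAs, most of the set therefore stood higher at MII. With TMM scaling the median of the 8 was 0.76 and that of all genes -0.22, and 7 of 8 estimates were above 0. *Smc3* was then called higher, at 1.11 (SE 0.16, adjusted p = 0.00748, edgeR), where 7.06% of all tested genes were called higher. On the spike-in scale its estimate was smaller than its standard error.

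In KO the same comparison gave 0 of 8 by edgeR beside 3.28% of all genes, and 0 of 8 by DESeq2 beside 16.1%, with no unadjusted p under 0.05 by either. By edgeR 4626 of all 18777 tested genes had such a p. The median of the 8 was -0.36 beside -1.17 for all genes. *Smc1a* had 5744 and 4594 scaled counts in KO GV (log2 fold change to KO MII -0.75, SE 0.69), *Smc3* 5558 and 4395 (-0.38, SE 0.64), *Smc1b* 339 and 267 (-0.34, SE 0.83) and *Stag3* 257 and 116 (-1.22, SE 1.03). These 4 were called lower once KO MII replicate 1 was left out, at -2.01 for *Smc1a* (edgeR adjusted p = 2.21e-05), -1.37 for *Smc3* (0.000873), -1.52 for *Smc1b* (0.0256) and -3.26 for *Stag3* (0.0011), but then 53.9% of all genes were called lower. Without KO MII replicate 2 none of the 8 was called. The lone remaining library is assumed in such a fit to vary like the others.

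**Figure D4:**
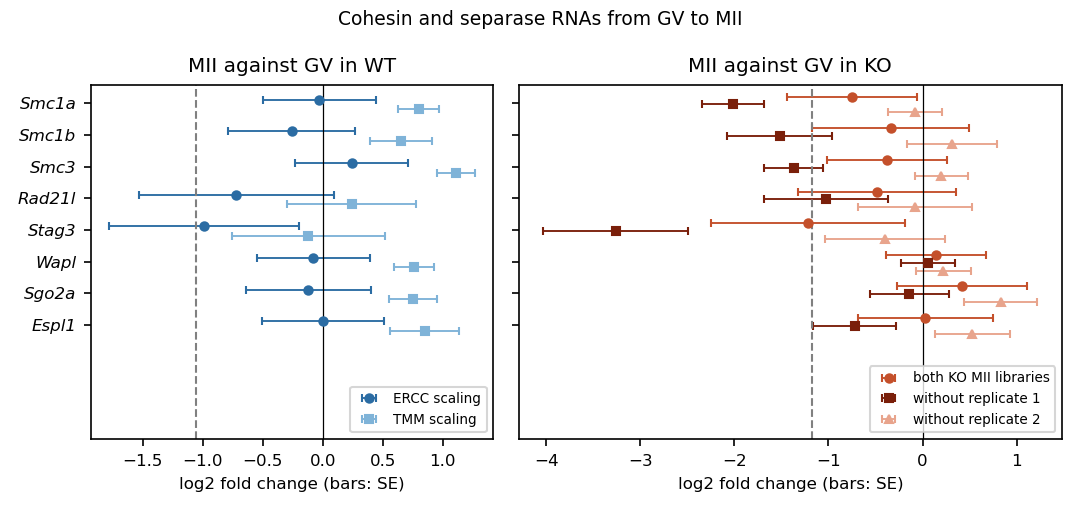
Log2 fold change of MII against GV (x axes, bars are standard errors) for the 8 tested genes (y axis), in WT on the left with ERCC or TMM scaling and in KO on the right with both KO MII libraries or without either one. Dashed lines mark the median of all genes with ERCC scaling, -1.06 in WT and -1.17 in KO, and in WT all 8 points lie to its right.

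A difference between genotypes in how RNAs changed from GV to MII, tested as an interaction, was called for 0 of 8 genes and for 0.0% of all genes by edgeR. At an unadjusted p under 0.05 there were 0 of the 8 and 1197 of all genes. DESeq2 called 0 of 8 beside 0.985% of all genes. The estimates ran from -0.71 (SE 0.83) for *Smc1a* to 0.55 (SE 0.75) for *Sgo2a*.

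Between GV and GVBD, 0 of 8 were called in WT by edgeR beside 0.0511% of all genes, and 0 of 8 by DESeq2 beside 1.95%. Of the 8, *Espl1* was the only one with an unadjusted p under 0.05, by both tools, where 1223 of all 19566 tested genes had such a p by edgeR. The 826 and 485 scaled counts of *Espl1* at GV stood above 233 and 291 at GVBD, a log2 fold change of -1.32 (SE 0.47, adjusted p = 0.578, edgeR). Its level at MII overlapped that at GV again. In KO, edgeR called 0 of 8 beside 0.22% and DESeq2 0 of 8 beside 1.19%, with no unadjusted p under 0.05, where 1459 of all 19064 tested genes had one by edgeR. There *Espl1* had 517 and 565 at GV and 492 and 565 at GVBD.

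The partners of cohesin and separase were followed in a list of 50 further genes. In WT between GV and MII, 49 were tested, of which 10 fell and 0 rose by edgeR, where 30.5% of all tested genes fell. The median of the list was -0.37, beside -1.06 for all genes. DESeq2 called the same 10.

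Of 14 tested genes of the machinery that shields centromeric cohesin 4 fell, near the 30.5% of all tested genes. *Ppp2ca*, the catalytic subunit of PP2A, went from 1978 and 2440 scaled counts in WT GV to 376 and 262 in WT MII (log2 fold change -2.79, SE 0.53). *Meikin*, a kinetochore regulator of the first division, fell by 2.23 on the log2 scale (SE 0.55), *Ppp2r5d*, a targeting subunit of PP2A, by 2.14 (SE 0.56) and *Haspin*, a histone kinase of the inner centromere, by 1.64 (SE 0.51). *Sgo1*, of the same group, was not called. The same 30.5% stands beside the counts of the other groups below.

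Of 8 loading, establishment and release genes 2 fell, *Cdca5*, which encodes the WAPL antagonist sororin (-1.58, SE 0.49), and *Hdac8*, which deacetylates SMC3 for reuse (-1.66, SE 0.51). Of 6 genes that control separase 1 fell, *Fzr1*, an activator of the anaphase-promoting complex (-2.37, SE 0.60), and *Pttg1* was not called. The other 3 were the condensin gene *Ncaph2* (-1.95, SE 0.55) and the synaptonemal complex genes *Syce2* (-1.85, SE 0.47) and *Syce1*, which had 62 and 30 counts in WT GV and 0 in both WT MII libraries. With a floor of 3 counts per library *Syce1* was at least 30.2-fold lower at MII. None of the 3 mitotic counterparts *Rad21*, *Stag1* and *Stag2* was called.

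The partner calls moved with the scaling and with single libraries. With TMM scaling 5 of the 10 were called lower and 9 other genes of the list higher, *Pttg1*, *Sgo1*, *Cdc20*, *Ccnb1* and *Cdk1* among them. These are out of 49 tested list genes, and of all 18816 tested genes 3193 were then called lower and 1329 higher. Leaving out 1 WT library left 1 to 13 calls lower, the fewest (only *Syce1*) without WT GV replicate 2 and 2 without WT GV replicate 1. In KO edgeR called 0 of 48 tested list genes, beside 3.28% of all genes. Of the 48, 8 had an unadjusted p under 0.05, beside 4626 of all 18777 tested genes. DESeq2 called 3, beside 16.1% of all genes: *Meikin* and *Ppp2ca* lower and *Hormad1* higher. *Hormad1* had 0 and 4 counts in KO GV and 92 and 114 in KO MII. *Ppp2ca* (-2.91, SE 0.80, adjusted p = 0.0673, edgeR) and *Meikin* (-3.20, SE 0.84, adjusted p = 0.0605, edgeR) had low estimates in KO too. With the replicate block both were called lower and *Hormad1* higher. Between genotypes edgeR called 0 of the list genes in each of the 4 comparisons. At an unadjusted p under 0.05 there were 11 of 49 at GV, 5 of 49 at GVBD, 0 of 49 at MII and 5 of 50 over all stages. Of all tested genes, 3475 of 19452, 2901 of 19462, 1286 of 17566 and 4146 of 22004 had such a p, in the same order. DESeq2 called 0, 1, 0 and 1 list genes in these comparisons, beside 5.59, 4.36, 2.04 and 7.13% of all genes. The 1 at GVBD was among the genes that control separase. The 1 over all stages was among the meiotic axis and synaptonemal complex genes. Between GV and GVBD edgeR called 0 in WT and 0 in KO, with 1 and 4 at an unadjusted p under 0.05. Of all tested genes, 1223 of 19566 in WT and 1459 of 19064 in KO had such a p. DESeq2 called 1 list gene in each genotype, beside 1.95% of all genes in WT and 1.19% in KO. That of WT was in the separase group and that of KO in the meiotic axis group. For the interaction of genotype with the change to MII both tools called 0, with 2 genes at an unadjusted p under 0.05 by each. Among all tested genes such a p was given to 1197 of 20807 by edgeR and 1441 of 31156 by DESeq2.

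**Figure D5:**
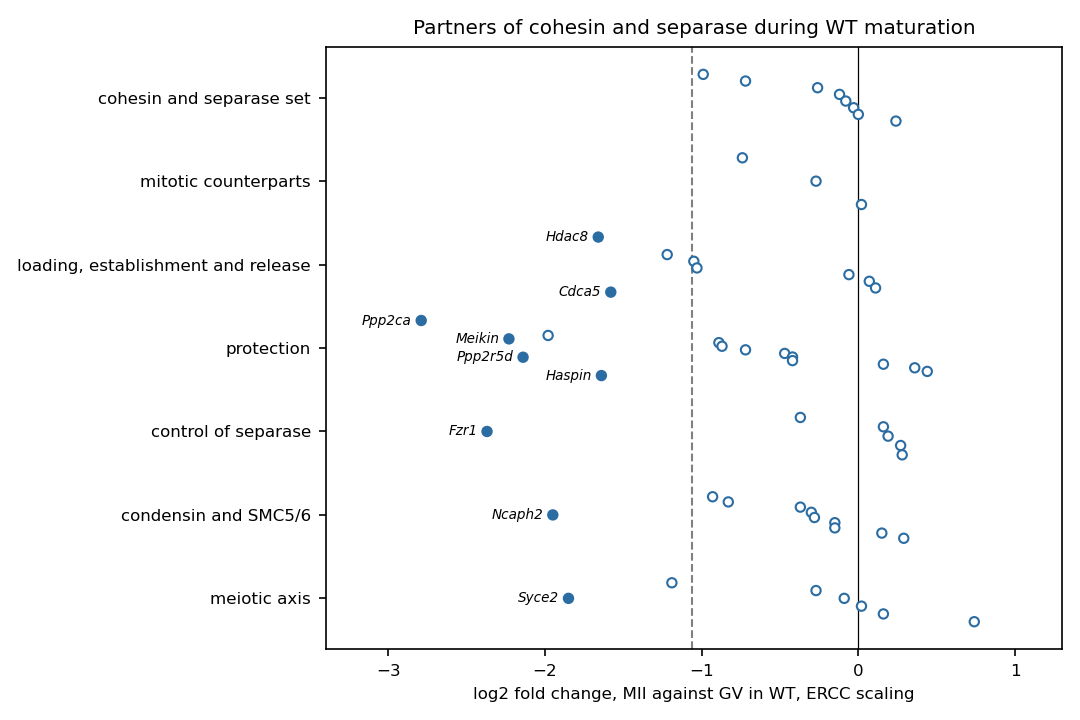
Log2 fold change of MII against GV in WT with ERCC scaling (x axis) for the 8 tested cohesin and separase genes and the tested genes of the partner list by role (y axis). Filled points passed the test and are named, the dashed line is the median of all tested genes at -1.06, and Syce1 is left out because both WT MII libraries had 0 counts.

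Overlapping annotation limits some of these values. Of the 7007 exonic bases of *Sgo2a* (chr1:57995971-58025899, GRCm38), 2455 (35%) are also exon of *Kctd18* on the opposite strand, which had 159 to 806 counts where *Sgo2a* had 292 to 1118. Use of strand in the counting is not given in the sources used here, so reads of the 2 genes cannot be told apart there. The other 8 genes share no exonic base with another annotated gene. Among the partners, 39.9% of the exonic bases of *Ppp2ca* are also exon of a gene on the opposite strand. *Ncaph2* shares 19.7% with *Sco2* and *Ppp2r5d* 3.56% with the abundant *Mea1*, likewise on the opposite strand.

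GGACT, the commonest letters around an m6A site, is a feature that the choice of genes did not use. It occurred 7 times in the longest coding transcript of *Espl1*, 6 times in *Stag3* and in *Wapl*, 4 times in *Smc1a*, 3 times in *Smc3*, 2 times in *Rec8* and 1 time in *Rad21l* and in *Sgo2a*. *Smc1b* held none in 4047 bases. Per kb, *Stag3* had 1.42 and *Sgo2a* 0.202, against a median of 1.04 over 15703 tested genes. The *Rad21l* model spans 1659 bases of coding length only, and methylation itself was not measured in these libraries.

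Across the 12 libraries the genes most alike in pattern were sought among 10835 named genes by Pearson's r of log2 TMM-scaled counts, as a description only. *Smc1a* was closest to *Dnah8* (0.982) and *Grm4* (0.978), *Wapl* to *Fam199x* (0.983) and *Rap1a* (0.981), *Smc3* to *Casp8ap2* (0.976) and *Rbm27* (0.971), and *Espl1* to *Ccdc71* (0.975) and *Ruvbl2* (0.967). *Sgo2a* was closest to *Cherp* (0.962) and *Zfp942* (0.952) and *Smc1b* to *R3hdm1* (0.903) and *AC132253.6* (0.900). The 2 low-count genes had no close match, *Stag3* with *Gfra4* (0.797) and *Trip13* (0.796) and *Rad21l* with *Gtf2a1l* (0.819) and *Zfp787* (0.804). Within the set the highest values were 0.83 for *Sgo2a* with *Wapl*, 0.80 for *Smc1a* with *Espl1* and 0.77 for *Smc1a* with *Smc3*, and the lowest -0.39 for *Stag3* with *Wapl*. These correlations share library effects, KO MII replicate 2 included.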

How the data were processed

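The deposited table holds raw counts, whole numbers of reads per gene with no normalization by the authors. The submitters' processing notes name cutadapt 1.9, HISAT2 2.0.4 and StringTie 1.3.4d with mm10, the study's methods give partly other versions, and the annotation release and use of strand are not given in the sources used here. The methods describe SMART-seq-type libraries of a few oocytes, the labels a bulk RNA preparation. Only uniquely mapped reads were kept, which lowers counts of near-identical copies.

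Groups follow the labels. Each comparison used edgeR 4.0.16 (glmQLFit, glmQLFTest) with R 4.3.3 on the groups it names, library sizes in proportion to ERCC counts, genes kept by filterByExpr, two-sided p adjusted over all tested genes by Benjamini-Hochberg, and a call at adjusted p under 0.05 with an absolute log2 fold change of at least 1. SE is the log2 fold change over the square root of F. Gene positions and exon lengths are those of GENCODE M21 (GRCm38), and symbols matched 52073 genes (91.9%). The script was tested on simulated counts. Named are the 9 genes, the list genes that either tool called for MII against GV, and *Rad21*, *Stag1*, *Stag2*, *Pttg1* and *Sgo1*. Also named are the 2 genes most like each member with a mean of at least 50 counts and a pseudocount of 0.5. List genes called by DESeq2 in other comparisons are given by group. *Fshr*, *Cdc20*, *Ccnb1*, *Cdk1* and the overlapping genes were named after their values were seen. The genes and lists were chosen with earlier results of these data known. Alternatives were other scalings (TMM, median of ratios, 46 well-covered ERCC sequences), filters, DESeq2 1.42.0, a single model of all 12 libraries, calls without a fold minimum, a replicate block, also with crossed numbers (chosen after seeing the data), and leaving out each library. Shares were tested with exact permutations in Python 3.11.15.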

Additional observations from a re-analysis of the deposited data

How the results depend on the processing

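The count of called genes among the 8 was 0 in 127 of 130 alternatives over the 9 comparisons. For MII against GV in WT it was 1 (*Smc3*) with TMM scaling and 1 with median-of-ratios scaling, and for MII against GV in KO it ran from 0 to 4 when 1 library was left out, 4 without KO MII replicate 1. The share differences kept their direction in 40 of 42 alternatives and passed no test in any. Leaving out a library moved the *Rec8* share difference between -0.0409 and 0.0347 points, the *Smc1b* one between -4.30 and -1.79 and the *Stag3* one between 3.11 and 6.88.

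Among single estimates, 43 of 623 alternative values changed sign. In WT from GV to MII, TMM and median-of-ratios scaling gave 0.80 and 0.91 for *Smc1a*, 0.65 and 0.77 for *Smc1b*, 0.24 and 0.36 for *Rad21l*, 0.75 and 0.88 for *Sgo2a*, 0.85 and 0.95 for *Espl1* and 0.76 and 0.90 for *Wapl*. In KO they gave 0.17 and 0.17 for *Smc1a*, 0.60 and 0.60 for *Smc1b* and 0.59 and 0.60 for *Smc3*. *Espl1* over all stages was -0.14 and -0.17. These scalings set the falling median gene near 0. They called 1329 and 1871 genes higher and 3193 and 2954 lower in WT from GV to MII, against 74 and 5747 with ERCC scaling.

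Leaving out 1 library moved *Smc1b* at GVBD from -0.65 to 0.45, *Stag3* from -0.08 to 1.22 at GVBD and from -1.32 to 1.54 at MII, and over all stages *Smc1a* from -0.27 to 0.12, *Smc3* from -0.24 to 0.11 and *Espl1* from -0.00 to 0.34. From GV to MII in WT it moved *Smc1a* from -0.49 to 0.31, *Smc3* from -0.01 to 0.46, *Stag3* from -1.57 to 0.01, *Sgo2a* from -0.35 to 0.07, *Espl1* from -0.35 to 0.43 and *Wapl* from -0.49 to 0.24, and in KO *Smc1b* from -1.52 to 0.31 and *Smc3* from -1.37 to 0.20. The cause was not tested.

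Libraries share replicate numbers, but same-numbered libraries did not deviate together (correlations -0.22 to 0.14 over 7 pairs of groups), so the numbers were not taken as pairs. With the replicate block 0 of the 8 genes was called in any comparison, *Espl1* in WT from GV to MII was 0.01, and the adjusted p of the *Smc1b* and *Stag3* shares was 0.141. The block moved all called genes from 19 to 0 at GV, 494 to 214 at GVBD, 141 to 4 at MII and 616 to 2462 for MII against GV in KO. With crossed numbers 218 genes were called at GV and 0 at MII, none of the 8 among them.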

Other observations

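The ratio of *Wapl*, the release factor, to *Smc3*, a subunit of the ring it opens, does not depend on the scaling of libraries. Per kb the GV libraries had 1.17 and 1.33 (WT) and 1.54 and 1.3 (KO). The GVBD libraries had 1.57 and 1.38 (WT) and 2.37 and 1.80 (KO), and the MII libraries 1.08 and 0.902 (WT) and 1.46 and 3.87 (KO). The KO values lay above the WT values at GVBD and MII and overlapped at GV. For *Wapl* against *Smc1a*, the other SMC subunit, the genotypes were apart at MII, with 1.02 and 1.08 (WT) and 1.77 and 6.05 (KO), but overlapped at GV and also at GVBD, where the values were 2.82 and 1.33 (WT) and 2.08 and 2.24 (KO). The ratio to *Smc3* was singled out after the values were seen, so no test is given, and the KO MII values of 3.87 and 6.05 come from the library that stood apart.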
